A study of Rattus norvegicus with 18 samples.

Results

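The interaction of phenylephrine (PE) with 10 µM Senexin A was examined in cultured rat heart muscle cells. It was taken as the PE response in the presence of the inhibitor minus the PE response in its absence. For each gene this is (PE with Senexin A minus Senexin A) minus (PE minus Vehicle), on the log2(FPKM + 1) scale, where FPKM is the number of sequenced fragments scaled to gene length and library size. A negative value means that the fold rise was smaller, or the fold fall larger, with the inhibitor present. The rise in FPKM can still be larger, as for Acta1 below. A value of 0 means that the separate fold effects of the drugs multiplied. It used 12 of the 18 libraries of the series, in 4 groups of 3, and was tested in 10478 of the 17303 genes of the deposited table.

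The cells were ventricular myocytes of Wistar rats taken on postnatal day 3. All cultures first had AraC, a drug that kills dividing cells, for 48 h, and then 24 h without serum. Treatment lasted 48 h, with media and drugs replaced at 24 h. The 4 groups were Vehicle, PE at 10 µM, Senexin A at 10 µM, and PE at 10 µM together with Senexin A at 10 µM. The other 6 libraries held Senexin A at 50 µM with and without PE, and entered only through the shared estimate of the spread and where that dose is named. Polyadenylated RNA was sequenced in bulk. Whether replicates came from separate isolations is not told by the labels, and p-values therefore measure only how these libraries varied, which may be partly technical.

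PE activates alpha1-adrenergic receptors, which signal through Gq, calcium and MAP kinases and drive hypertrophic growth of cultured myocytes. That growth includes sarcomere assembly and the return of fetal genes such as skeletal alpha-actin and the natriuretic peptides. Senexin A inhibits CDK8 and its paralog CDK19, the kinases of the Mediator kinase module. The Mediator complex joins sequence-specific transcription factors to RNA polymerase II, and its kinase module can act as a brake or an aid depending on the gene.

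The cultures carried the labelled cell type's markers: the summed level of 8 cardiomyocyte markers ran from 30990 to 44990 FPKM in Vehicle, 76730 to 94090 in PE, 42080 to 55690 in Senexin A and 57110 to 75610 in PE with Senexin A. The sum of 11 fibroblast markers ran from 1878 to 3161, 1275 to 2017, 1724 to 3283 and 900.2 to 1802 FPKM in the same order. That of 8 macrophage markers ran from 38.5 to 117.5, 19.6 to 88.2, 74.5 to 391.6 and 26.9 to 243.5 FPKM. The 10 endothelial markers summed to at most 10.2 FPKM in these groups, with Robo4 at the floor of the table in every library. FPKM totals per library were 610324 to 660958 in Vehicle, 810428 to 853958 in PE, 699695 to 746492 in Senexin A and 839441 to 910958 in PE with Senexin A, and relative depth ran from 0.833 to 1.11 against Vehicle replicate 2, with absolute depth unknown. None of the marker lists was adjusted for, and their part in the results below was not tested. In bulk RNA, fewer cells of a type and less RNA per cell cannot be told apart.

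Most genes that responded to PE alone were also called at 10 µM of inhibitor. PE changed 3205 genes without it (30.6% of those tested) and 3408 with it (32.5%), by limma with a Benjamini-Hochberg adjusted p under 0.05, and 2132 were called in both. These made up 66.52% of the first set and 62.56% of the second, and 2127 of them moved the same way. Across all 10478 genes the 2 responses, which share no library, had a Pearson r of 0.80 and a Spearman rho of 0.79, given as a description since genes are not independent replicates. Their spread across all tested genes was alike, with an SD of 0.42 on the log2 scale in each. The 1500 genes called for PE at 50 µM Senexin A (14.3% of those tested) were also compared, with signs set to that response. This choice favours genes whose response persisted with inhibitor, and leaves out those such as Acta1 whose response was not called at 50 µM, so the values are a description of that set. Their median response was 0.35 on the log2 scale without inhibitor and 0.42 at 10 µM. The 3 replicate numbers gave 0.34, 0.33 and 0.37 without inhibitor and 0.40, 0.43 and 0.45 at 10 µM.

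Against that background, 32 genes had a called interaction (0.305% of those tested). It was negative in 25 (0.239%) and positive in 7 (0.0668%), and 1018 genes had an unadjusted p under 0.05. Over all genes the median interaction was 0.0012, and 49.71% of estimates were negative. Of the 32 genes, 19 had an interaction of at least 1 on the log2 scale. Replicate numbers paired the libraries, and with the number as a block 230 genes were called (2.2%), 76 positive (0.725%) and 154 negative (1.47%), all 32 among them. That count was 150, 9 and 7 without replicate number 1, 2 and 3. Without the block, the count of 32 fell to 15 and 19 without Vehicle replicate 2 or 3, to 14 and 16 without PE replicate 2 or 3, to 13 without Senexin A replicate 2 or without replicate 1 of PE with Senexin A, and to 21 without replicate 1 of PE with 50 µM. The sign of the interaction was the same within each of the 3 replicate numbers for all 32 genes. Their choice from these same libraries favours that agreement, so it is a description. Of the 32, 12 were called in each of the 18 omissions of 1 library.

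**Figure D1:**
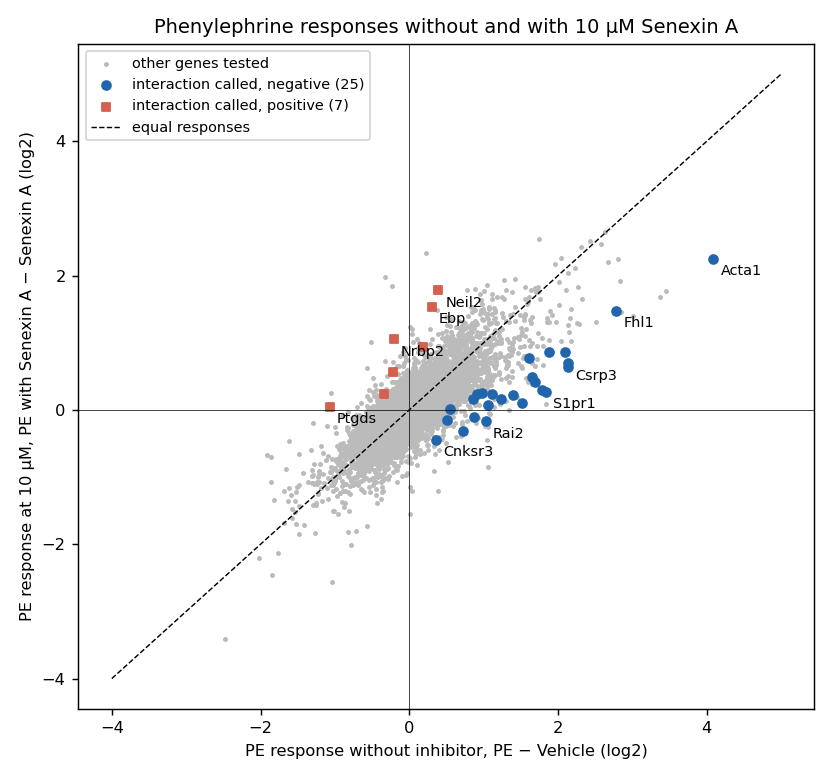
PE response without inhibitor (x axis, PE minus Vehicle) against PE response at 10 µM Senexin A (y axis), each a log2(FPKM + 1) difference of means of 3 libraries, 1 point per tested gene. The grey cloud lies along the line of equal responses, while the 25 blue points of negative interaction lie below it to the right, with Acta1 at 4.09 and 2.25, and the 7 red squares of positive interaction lie above it.

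Acta1, the skeletal alpha-actin that newborn and stressed hearts express, had the largest called interaction. Its level was 219, 170 and 155 FPKM in the 3 Vehicle libraries, 3395, 3002 and 2837 with PE, 1549, 1088 and 870 with Senexin A, and 6075, 5009 and 5195 with both. No 2 groups overlapped, and the cultures given both drugs were the highest. PE raised Acta1 by 4.09 ± 0.18 (log2 ± SE) without inhibitor, which is 17.0-fold, and by 2.25 ± 0.18, or 4.76-fold, at 10 µM. The interaction was -1.84 ± 0.25 (adjusted p = 0.0035). Senexin A alone had raised it 6.31-fold, so that the separate effects would multiply to 19360 FPKM where 5407 (geometric mean) was observed.

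The promoters of Acta1, Fbxl22 and S1pr1, genes of large negative interaction, are shown. That of Myl3 was added after its matches were seen, and those of positive genes are not shown. The inhibitor raised Acta1 and Fbxl22 with and without PE, and Myl3 only without PE. S1pr1 was raised without PE and lowered with it. None of the searched elements occurs in the promoter of S1pr1. Capitals mark the CArG box, the element bound by serum response factor (SRF), and CATTCC, the MCAT element bound by TEAD factors, also where it is read on the other strand as GGAATG. Each sequence is the 250 bases before the transcription start from RefSeq (GRCr8), 5′ to 3′ on the gene's strand.
Acta1, chr19:68784195-68784444, minus strand: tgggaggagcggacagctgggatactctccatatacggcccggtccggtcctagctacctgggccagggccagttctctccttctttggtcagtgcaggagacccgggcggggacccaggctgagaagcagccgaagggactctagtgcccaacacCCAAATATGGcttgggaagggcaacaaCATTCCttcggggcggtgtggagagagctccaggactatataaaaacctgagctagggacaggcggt
Fbxl22, chr8:75971715-75971964, minus strand: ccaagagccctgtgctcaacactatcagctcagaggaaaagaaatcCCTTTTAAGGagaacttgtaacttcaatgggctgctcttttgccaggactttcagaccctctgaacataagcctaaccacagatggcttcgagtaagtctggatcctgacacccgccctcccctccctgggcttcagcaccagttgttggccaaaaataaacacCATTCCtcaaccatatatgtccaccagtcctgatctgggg
Myl3, chr8:119616844-119617093, plus strand: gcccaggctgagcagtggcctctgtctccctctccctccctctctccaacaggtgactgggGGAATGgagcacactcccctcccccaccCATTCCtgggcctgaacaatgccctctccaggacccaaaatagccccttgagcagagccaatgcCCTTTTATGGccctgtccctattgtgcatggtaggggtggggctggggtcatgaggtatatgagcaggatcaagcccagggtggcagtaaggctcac
S1pr1, chr2:206314071-206314320, minus strand: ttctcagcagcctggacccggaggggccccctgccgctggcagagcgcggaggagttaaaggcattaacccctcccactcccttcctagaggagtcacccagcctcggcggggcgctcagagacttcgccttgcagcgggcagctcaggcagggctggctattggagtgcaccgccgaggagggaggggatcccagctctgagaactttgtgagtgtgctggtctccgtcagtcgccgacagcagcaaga
The CArG box lies 94 to 85 bases before the start in Acta1, 204 to 195 in Fbxl22 and 97 to 88 in Myl3. CATTCC lies 67 to 62 bases before it in Acta1, 40 to 35 in Fbxl22, and 189 to 184 and 161 to 156 in Myl3.

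The table held promoters for 18 of the 25 genes with a negative interaction and 4 of the 7 with a positive one, from 250 bases before to 50 after each start. The CArG box, searched on both strands, occurred for 5 of the 18 (Acta1, Actc1, Fbxl22, Fhl1 and Myl3) and for none of the 4, beside 1.637% of all 33469 promoters. The 18 genes had 20 promoters, of which 5 held the box. In Actc1 it lies 3 to 12 bases after the start, not before it. CATTCC occurred for 5 of the 18 (Acta1, Fbxl22, Myl3, Ppip5k1 and Zyx) and for Apbb1, beside 14.19%. TGANTCA, the AP-1 element, occurred for Rcan1 and Glrx, beside 7.329%, and TGACGTCA, the cyclic AMP response element, for Rcan1, beside 1.829%. Myl3 was added to those shown after its matches were seen, and a match is a run of letters, not a measured site.

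Among the contractile proteins, Actc1, cardiac alpha-actin, had 4591, 4137 and 3850 FPKM in Vehicle, 16150, 15370 and 14720 with PE, 10520, 10780 and 8900 with Senexin A, and 18650, 19160 and 17230 with both. As with Acta1, the groups were all apart and the highest level was in cultures with both drugs. PE raised it 3.68-fold without and 1.83-fold with the inhibitor, an interaction of -1.01 ± 0.20 (adjusted p = 0.049). Myl3, the ventricular essential myosin light chain, was at 1985, 1796 and 1459 FPKM in Vehicle, 5671, 5561 and 5130 with PE, 3089, 3441 and 2933 with Senexin A, and 3932, 4917 and 4448 with both. Here the cultures with both drugs lay below those with PE alone. The PE effect fell from 3.14-fold to 1.40-fold, an interaction of -1.16 ± 0.20 (adjusted p = 0.015).

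Proteins of the Z-disc and of stretch sensing formed a second set. Csrp3, the muscle LIM protein, was at 853, 600 and 443 FPKM in Vehicle, 2557, 3013 and 2478 with PE, 924, 825 and 677 with Senexin A, and 1119, 1558 and 1258 with both. Senexin A and Vehicle libraries overlapped, and PE with Senexin A lay above Senexin A but below PE. Its interaction was -1.43 ± 0.28 (adjusted p = 0.043), with a PE effect of 4.38-fold without and 1.62-fold with inhibitor. The interaction of Csrp3 was not called in the compared groups alone or with no filter (limma, adjusted p = 0.085 and 0.129). Fhl1, a LIM protein of the sarcomere and a part of its strain sensor, had 450, 342 and 368 FPKM in Vehicle, 2739, 2757 and 2469 with PE, 797, 621 and 569 with Senexin A, and 1798, 1948 and 1726 with both. The groups did not overlap, and PE raised it 6.89-fold without and 2.78-fold with the inhibitor (interaction -1.31 ± 0.20, adjusted p = 0.0067).

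Ankrd1, an ankyrin repeat protein that links titin to the nucleus, was at 2555, 2294 and 2042 FPKM in Vehicle, 6996, 7972 and 7213 with PE, 4243, 4373 and 3038 with Senexin A, and 4814, 5609 and 5031 with both. Senexin A alone raised it 1.68-fold, and with both drugs it lay between PE and Senexin A. Its PE effect was 3.23-fold without inhibitor and 1.34-fold, not called (adjusted p = 0.074, and 0.012 with the replicate block), at 10 µM, an interaction of -1.27 ± 0.25 (adjusted p = 0.046). Under quantile normalization the interaction of Ankrd1 was -0.93 and not called (limma, adjusted p = 0.055). With no filter it was not called either (limma, adjusted p = 0.166). Pdlim5, a PDZ and LIM protein of the Z-disc, had the smallest spread of this set, with 187, 176 and 175 FPKM in Vehicle, 356, 339 and 318 with PE, 240, 257 and 262 with Senexin A, and 299, 300.3 and 295 with both. No groups overlapped, and its interaction was -0.67 ± 0.10 (adjusted p = 0.0061).

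Fbxl22, a muscle F-box protein of the Z-disc, was, with Acta1, one of the 2 negative genes that Senexin A raised both with and without PE. It was at 10.8, 9.12 and 7.55 FPKM in Vehicle, 33.6, 28.1 and 22.5 with PE, 52.2, 57.2 and 53.4 with Senexin A, and 50.1, 65.5 and 60.6 with both. The last 2 groups overlapped, and both lay above PE alone. Senexin A raised Fbxl22 5.49-fold without PE and 2.07-fold with it, and PE raised it 2.85-fold without the inhibitor (interaction -1.41 ± 0.22, adjusted p = 0.0070). At 10 µM the PE effect was 1.08-fold and not called.

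Genes of adhesion and of muscle were among the others. Itga5, the fibronectin receptor's alpha subunit, had -0.98 ± 0.15 (adjusted p = 0.0067). It was at 66.4, 58.3 and 56.0 FPKM in Vehicle, 96.8, 121 and 117 with PE, 57.3, 67.0 and 64.0 with Senexin A, and 54.6, 54.7 and 65.9 with both. Itga5 was high in the PE libraries only, and the other 3 groups overlapped. Slmap, a sarcolemmal membrane protein, had -0.72 ± 0.14, Sh3bgr, a muscle protein with an SH3-binding motif, -1.17 ± 0.22, and Zyx, the focal adhesion protein zyxin, -0.53 ± 0.10 (adjusted p = 0.048, 0.033 and 0.028). Zyx shares its locus with another row of the table, so its value is uncertain.

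**Figure D2:**
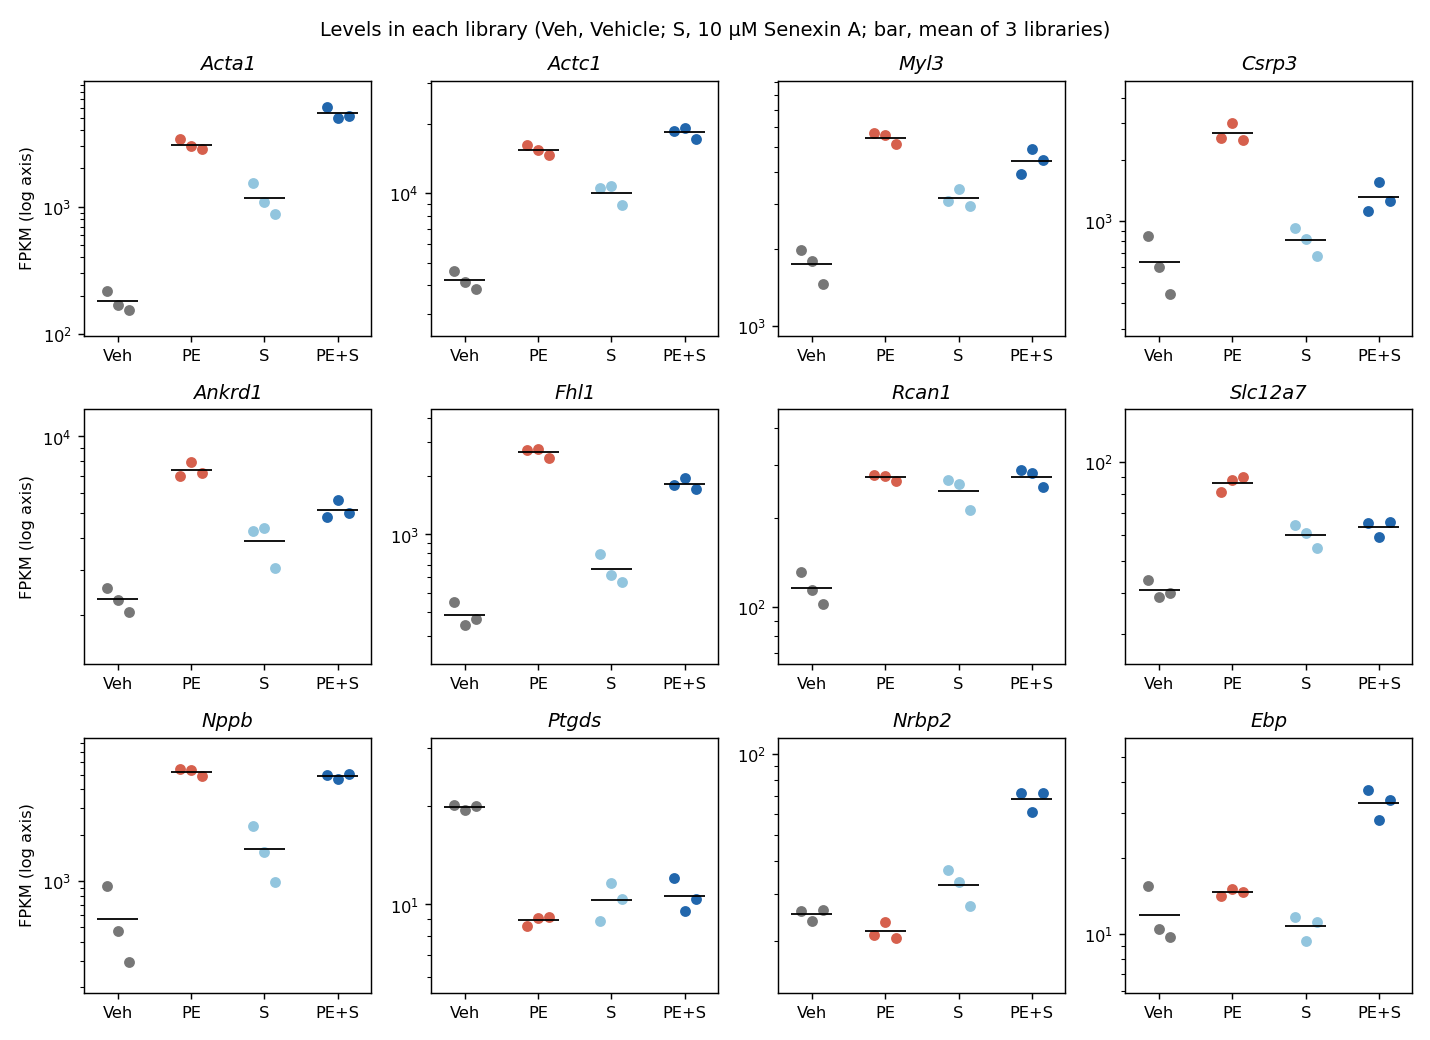
FPKM of 12 genes in each library (log axis, range set per panel) in Vehicle, PE, Senexin A (S) and PE with Senexin A, 3 points per group with a bar at their mean. In Acta1 and Actc1 the cultures with both drugs are the highest, in Slc12a7 and Csrp3 they lie well below PE, and in Nrbp2 and Ebp they lie above the other 3 groups.

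Signalling genes were also among the negative interactions. Rcan1, a target and feedback inhibitor of calcineurin, was at 131, 114 and 103 FPKM in Vehicle, 279, 277 and 266 with PE, 267, 259 and 213 with Senexin A, and 289, 282 and 253 with both. Vehicle stood apart below the other 3 groups, in which PE and the combination overlapped. Each drug alone raised Rcan1, PE 2.36-fold and Senexin A 2.11-fold, but PE added to Senexin A gave 1.12-fold (interaction -1.08 ± 0.20, adjusted p = 0.033). The combination was at 274 FPKM (geometric mean), where the product of both effects would be 580.

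S1pr1, a G protein-coupled receptor for sphingosine 1-phosphate, had 25.7, 20.4 and 26.0 FPKM in Vehicle, 94.9, 81.9 and 87.0 with PE, 52.1, 42.2 and 37.5 with Senexin A, and 42.7, 62.8 and 54.2 with both. PE lay above every other library, and the 2 groups with inhibitor overlapped. PE raised S1pr1 3.56-fold without inhibitor, and the 1.20-fold difference at 10 µM was not called (interaction -1.57 ± 0.31, adjusted p = 0.048). Its interaction was -2.13, -1.39 and -1.18 within replicates 1, 2 and 3. It was not called with a pseudocount of 0.1, no variance trend or no filter (limma, adjusted p = 0.055, 0.055 and 0.142).

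Slc12a7, a potassium-chloride cotransporter, had the smallest adjusted p together with Rai2. It was at 43.9, 38.9 and 40.1 FPKM in Vehicle, 81.1, 87.8 and 89.9 with PE, 64.5, 60.7 and 54.6 with Senexin A, and 65.1, 59.0 and 65.6 with both. PE was the highest group, and the 2 groups with inhibitor overlapped at a level between Vehicle and PE (interaction -0.98 ± 0.11, adjusted p = 0.00074). Rai2, the product of a retinoic acid-induced gene, was at 6.25, 7.38 and 7.67 FPKM in Vehicle, 14.8, 17.3 and 14.4 with PE, 8.43, 7.97 and 8.52 with Senexin A, and 7.09, 6.81 and 7.95 with both. Only PE alone held it high, 2.04-fold over Vehicle, and its interaction was -1.20 ± 0.13 (adjusted p = 0.00074).

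Cnksr3, a scaffold protein of the Ras and sodium transport pathways, was the 1 gene of negative interaction whose PE response was called in opposite directions. It was at 25.6, 26.4 and 23.3 FPKM in Vehicle, 31.8, 34.5 and 31.4 with PE, 33.3, 32.5 and 30.5 with Senexin A, and 24.7, 22.2 and 23.1 with both. Either drug alone raised it and the combination lay at the level of Vehicle (interaction -0.81 ± 0.12, adjusted p = 0.0067). Ppip5k1, an inositol pyrophosphate kinase, had -0.85 ± 0.15, Rab3ip, an exchange factor for Rab GTPases, -0.68 ± 0.12, and Pitpnb, a phosphatidylinositol transfer protein, -0.65 ± 0.11 (adjusted p = 0.024, 0.021 and 0.015).

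Enzymes and secreted proteins made up the rest. Adamts19, a secreted metalloprotease, was at 0.963, 0.636 and 0.674 FPKM in Vehicle, 5.87, 6.89 and 7.32 with PE, 0.425, 0.224 and 0.406 with Senexin A, and 0.975, 1.07 and 1.29 with both. It was high only with PE alone, and the combination lay just above Vehicle (interaction -1.49 ± 0.18, adjusted p = 0.0012, and 0.155 with a pseudocount of 0.1). Azin2, an antizyme inhibitor in polyamine metabolism, was at 4.53, 4.68 and 2.44 FPKM in Vehicle, 15.8, 16.2 and 14.2 with PE, 4.22, 3.09 and 3.02 with Senexin A, and 3.99, 4.72 and 4.62 with both. The PE libraries stood above all others, and the remaining groups overlapped (interaction -1.48 ± 0.25, adjusted p = 0.015). Slc25a26, the mitochondrial S-adenosylmethionine carrier, had -1.23 ± 0.22 (adjusted p = 0.023), and Tmem243, a transmembrane protein, -1.05 ± 0.21 (adjusted p = 0.049).

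The 7 positive interactions were in genes of varied roles. Ptgds, a prostaglandin D2 synthase, was at 20.2, 19.4 and 20.0 FPKM in Vehicle, 8.59, 9.09 and 9.17 with PE, 8.87, 11.7 and 10.4 with Senexin A, and 12.01, 9.58 and 10.4 with both. Vehicle was high, and the other 3 groups lay together far below it. Either drug alone lowered Ptgds, and in the presence of the inhibitor its PE response was 0.04 and not called (interaction 1.11 ± 0.14, adjusted p = 0.0017). It was the only gene of the 7 whose PE response was called without inhibitor only.

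Nrbp2, a pseudokinase, was at 26.0, 23.8 and 26.2 FPKM in Vehicle, 21.1, 23.6 and 20.5 with PE, 37.0, 33.2 and 27.1 with Senexin A, and 71.6, 60.7 and 71.9 with both. The cultures with both drugs stood above all others, 3.03-fold over PE and 2.07-fold over Senexin A (interaction 1.26 ± 0.18, adjusted p = 0.0039). Ebp, an isomerase of cholesterol synthesis, was at 15.5, 10.5 and 9.76 FPKM in Vehicle, 14.1, 15.2 and 14.7 with PE, 11.7, 9.40 and 11.2 with Senexin A, and 37.1, 28.3 and 33.7 with both. Neither drug alone had a called effect on Ebp, and both together gave 32.8 FPKM (geometric mean) where the product of the effects would be 13.4 (interaction 1.23 ± 0.24, adjusted p = 0.046).

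Neil2, a DNA glycosylase of base excision repair, was low in Vehicle (0.456, 0.964 and 0.941 FPKM) and with PE (1.74, 1.33 and 0.962), at 2.68, 2.26 and 2.62 with Senexin A, and at 12.9, 9.06 and 11.7 with both. Vehicle and PE overlapped, and the combination was far above each (interaction 1.39 ± 0.28, adjusted p = 0.048, and 0.264 with a pseudocount of 0.1). Glrx, the thiol-disulfide enzyme glutaredoxin, had 0.79 ± 0.16, and Rbmx2, an RNA-binding protein, 0.76 ± 0.15 (adjusted p = 0.048 and 0.046). Apbb1, an adaptor of the amyloid precursor protein, fell by 0.34 with PE alone and rose by 0.24 with PE at 10 µM, an interaction of 0.58 ± 0.11 (adjusted p = 0.046).

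**Figure D3:**
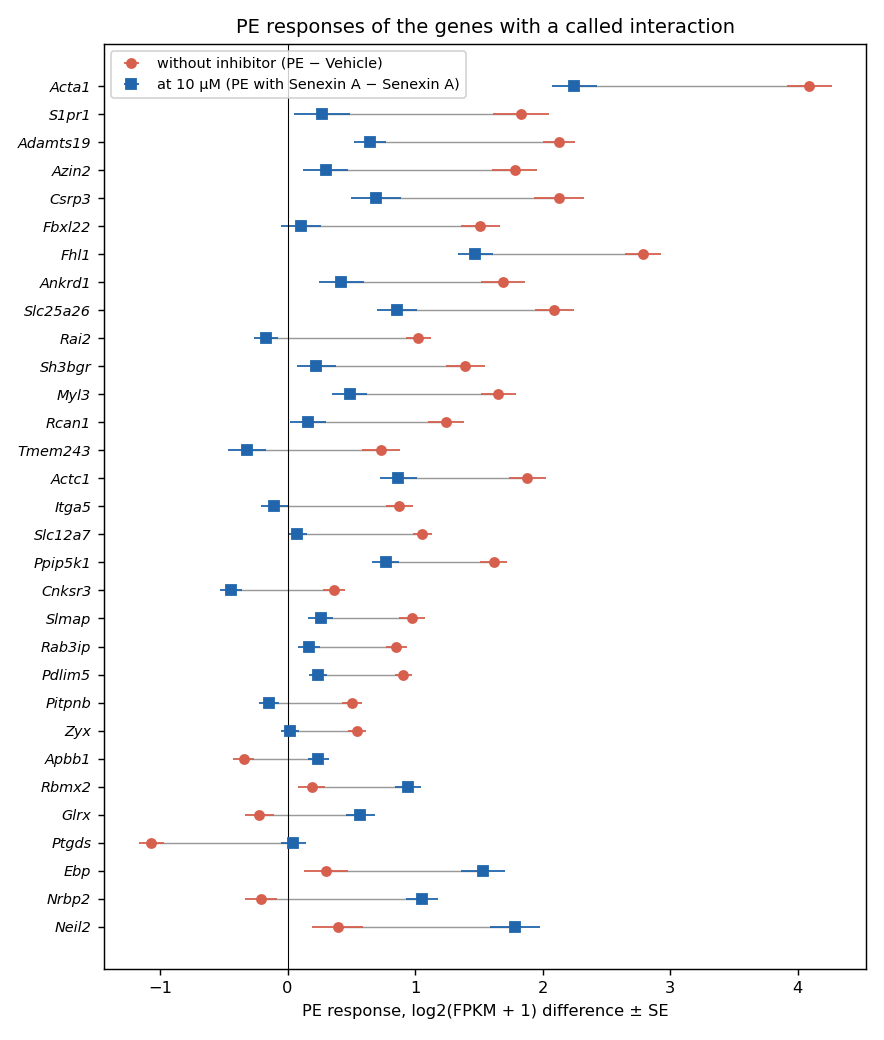
PE responses of 31 of the 32 genes with a called interaction, without inhibitor (red circles) and at 10 µM Senexin A (blue squares), as log2(FPKM + 1) differences ± SE of the model. In the 24 genes of negative interaction the blue square lies to the left of the red circle, and it crosses below 0 in 5 of them, while in the 7 of positive interaction it lies to the right.

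The 32 genes were sorted by whether their PE response was called on each side of the comparison, a description, since the same libraries gave the interaction. Of the 25 negative genes, 15 had a PE response called without inhibitor only, 9 had one called on both sides that was smaller at 10 µM, and Cnksr3 changed direction. All 25 had been raised by PE without inhibitor, where PE raised 17.9% of all tested genes, with a median of 1.39 (0.36 to 4.09). At 10 µM the median was 0.24, 9 were called as raised (18.9% of all tested genes were) and Cnksr3 as lowered. Of the 7 positive genes, 5 had a PE response called at 10 µM only, Ptgds without inhibitor only, and Apbb1 in opposite directions. These classes depend on the fit, and with the replicate block Ankrd1, among the 15, was called on both sides. Of the 154 negative genes of that fit, 63 had a PE response called without inhibitor only and 16 at 10 µM only. On both sides, 54 were called as smaller at 10 µM, 9 as larger and 12 in opposite directions.

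The same interaction can be read as the difference between the inhibitor's effect with PE and its effect without PE. The called genes were chosen from these same libraries, so their counts and medians here are a description. Choosing negative interactions favours a higher inhibitor effect without PE and a lower one with PE. For positive interactions the choice favours the reverse. Shares of all tested genes, which were not so chosen, are given for scale only. Among the 25 negative genes Senexin A alone raised 17 and lowered none (it raised 9.17% and lowered 7.01% of all tested genes), with a median of 0.60. In the presence of PE it raised Acta1 and Fbxl22, lowered 12 and left 11 uncalled (9.13% raised and 7.84% lowered overall), with a median of -0.44. By these calls, 11 genes were raised without PE and not called with it, 8 were lowered only in its presence, 4 were raised without and lowered with it, and 2 were raised in both. Rcan1 and Actc1 belong to the 11, Adamts19, Azin2, Csrp3, Rai2 and Itga5 to the 8, and Fhl1, S1pr1, Slc12a7 and Cnksr3 are the 4. With the replicate block Senexin A changed 2761 genes without PE (26.4%) and 2924 with it (27.9%), against 1696 (16.2%) and 1778 (17%) without the block. Of the 7 positive genes, the inhibitor raised Neil2 alone and lowered Ptgds, Apbb1 and Rbmx2 without PE, and raised Neil2, Nrbp2, Ebp and Glrx with PE.

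**Figure D4:**
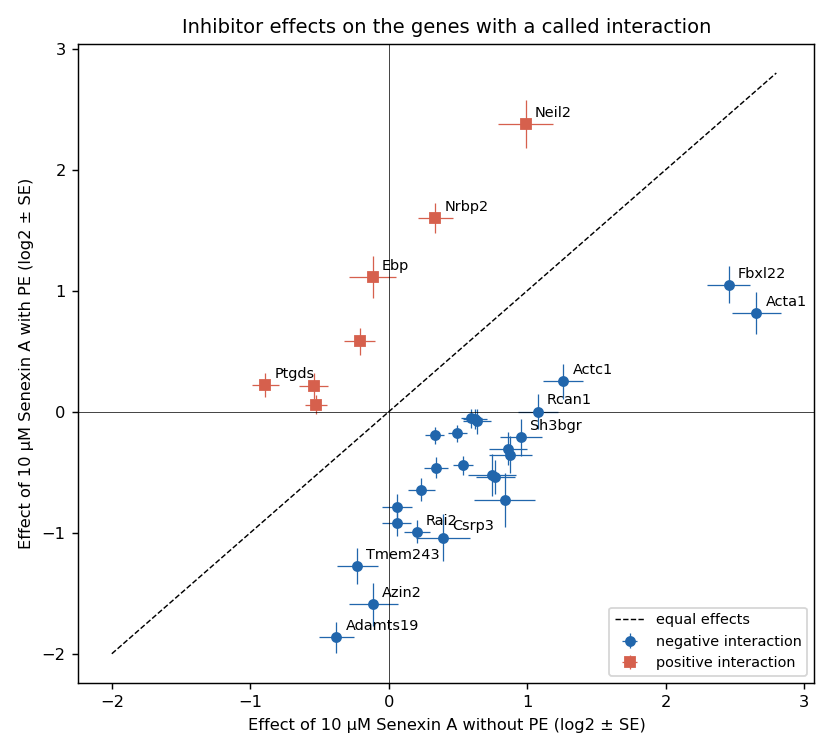
Effect of 10 µM Senexin A without PE (x axis, Senexin A minus Vehicle) against its effect with PE (y axis, PE with Senexin A minus PE), log2(FPKM + 1) ± SE, for the 32 genes of called interaction. All 25 negative genes (blue) lie below the line of equal effects, most to the right of 0 on the x axis, with Acta1 and Fbxl22 above 0 on both axes and Adamts19 below 0 on both.

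Gene lists placed these genes among their relatives. The lists were written with earlier results of these data known, and some genes, such as Acta1, Actc1 and Ankrd1, are in several. Shares of calls in the lists are therefore a description, and the lists are not separate from each other. In the fetal and hypertrophic programme, 4 of 18 tested members had a called interaction, all negative (Acta1, Csrp3, Fhl1 and Ankrd1), where 0.239% of all tested genes had a negative call, and 16 of 18 estimates were negative with a median of -0.67, beside 0.0012 over all genes. PE raised 10 of the 18 without inhibitor and 8 with it (17.9% and 18.9% of all tested genes). The natriuretic peptides did not pass. Nppb, brain natriuretic peptide, was at 923, 468 and 295 FPKM in Vehicle, 5434, 5318 and 4911 with PE, 2290, 1552 and 989 with Senexin A, and 4942, 4674 and 5038 with both. PE libraries with and without inhibitor overlapped, while Senexin A alone lay above Vehicle, and the interaction was -1.69 ± 0.46 (adjusted p = 0.161, and 0.029 with the replicate block). Nppa, atrial natriuretic peptide, had an interaction of -0.92 ± 0.64 (adjusted p = 0.728), with Vehicle libraries from 1535 to 9359 FPKM. Xirp2, which binds actin at intercalated discs, had -1.61 ± 0.37 (adjusted p = 0.095, and 0.021 with the block), and Myh7, the slow myosin heavy chain, -1.17 ± 0.70 (adjusted p = 0.663). Myh7 and its near-identical paralog Myh6 may share reads, so their values are uncertain.

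In the sarcomere and Z-disc list 2 of 23 members were called, Myl3 and Actc1, and with the replicate block 9 were, all negative (0.239% and 1.47% of all tested genes had a negative call). The block added Myom2, Myom1, Tpm1, Ldb3, Myoz2, Mybpc3 and Actn2, thick-filament, thin-filament and Z-disc proteins with interactions of -1.49, -0.78, -0.66, -0.64, -0.55, -0.49 and -0.49. Of the 23 estimates, 22 were negative, with a median of -0.44, or -0.18 under quantile normalization. PE raised 20 of the 23 without inhibitor and 11 with it, and Senexin A alone raised 16, beside 17.9%, 18.9% and 9.17% of all tested genes. The summed cardiomyocyte markers given above were higher in PE than in the combination, and 8 of 8 marker estimates were negative with a median of -0.37 (-0.15 under quantile normalization), of which 0 were called by limma, 3 had an unadjusted p under 0.05 and 2 were called with the block. The 10 tested fibroblast markers had a median of -0.36, with all 10 negative, 0 called by limma with or without the block and 0 at an unadjusted p under 0.05. The share of either in the results was not tested.

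SRF targets had 3 of 20 members called, Acta1, Actc1 and Zyx, all negative (0.239% of all tested genes were), and a median of -0.17 (-0.07 under quantile normalization). YAP and TEAD targets had 1 of 17, Ankrd1, and calcineurin, NFAT and MEF2 genes 1 of 18, Rcan1, both negative (0.239% overall), with medians of -0.19 and -0.13. The extracellular matrix list had 1 of 25, Adamts19, negative (0.239% of all tested genes), and a median of -0.22. It leaves out the matrix genes Lamc1 and Col18a1, which had positive interactions called with the block only (0.76 and 0.92). With the block, Tgfb2, a TGF-beta ligand, was called at -1.03 (adjusted p = 0.020, and 0.090 without it), with 108, 101 and 105 FPKM with PE against 74.3, 55.4 and 70.4 with both drugs.

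Lists of energy metabolism had no calls and differed in sign. For scale, the block called 1.47% of all tested genes as negative, and 1018 of 10478 had an unadjusted p under 0.05 by limma. In oxidative phosphorylation 0 of 29 members had a called interaction by limma, 8 had an unadjusted p under 0.05, and 3 were called with the block (Ndufv1 of complex I, Cox4i1 and Cox5b of complex IV, at -0.57, -0.40 and -0.54). All 29 estimates were negative, with a median of -0.29. PE raised 24 of them without inhibitor and 11 at 10 µM, and Senexin A alone raised 25, beside 17.9%, 18.9% and 9.17% of all tested genes. The tricarboxylic acid cycle and pyruvate dehydrogenase genes had 18 of 19 estimates negative, a median of -0.26, 0 called by limma and 3 at an unadjusted p under 0.05, with Fh, fumarate hydratase, called with the block (-0.46). Here PE raised 17 of 19 without and 8 with the inhibitor (17.9% and 18.9% overall). Fatty acid oxidation and PPAR target genes had 24 of 35 estimates negative and 11 positive, with a median of -0.16, 0 called by limma and 7 at an unadjusted p under 0.05. In glucose uptake and glycolysis 14 of 23 estimates were positive, with a median of 0.09, 0 called by limma and 4 at an unadjusted p under 0.05; the block called 2 as positive and 1 as negative (0.725% and 1.47% overall).

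Sterol and fatty acid synthesis genes had mostly positive estimates. PE raised 25 of the 28 tested genes without inhibitor and all 28 at 10 µM (17.9% and 18.9% of all tested genes), and 20 of 28 interactions were positive with a median of 0.21, of which 0 were called by limma with or without the block and 5 had an unadjusted p under 0.05. Its largest values were Scd1, a fatty acid desaturase, at 0.81, Hsd17b7 at 0.68 and Mvd, a mevalonate pathway enzyme, at 0.59. The list leaves out Ebp, which was called (1.23), and Tm7sf2, a sterol reductase called with the block only (0.91). Among all 10478 tested genes, 1018 had an unadjusted p under 0.05 by limma, and the block called 0.725% as positive. The integrated stress and unfolded protein response had 19 of 24 positive estimates and a median of 0.15, with 0 called by limma, 2 at an unadjusted p under 0.05, and Psat1, an enzyme of serine synthesis, called with the block only (0.75, adjusted p = 0.029, and 0.340 without it). Slc2a1, the glucose transporter GLUT1, had 0.74 ± 0.18 (adjusted p = 0.101, and 0.029 with the block): it was at 31.0, 23.2 and 21.2 FPKM in Vehicle, 24.0, 26.0 and 20.6 with PE, 54.0, 58.0 and 60.6 with Senexin A, and 106, 87.6 and 82.3 with both. The combination lay above every other library.

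**Figure D5:**
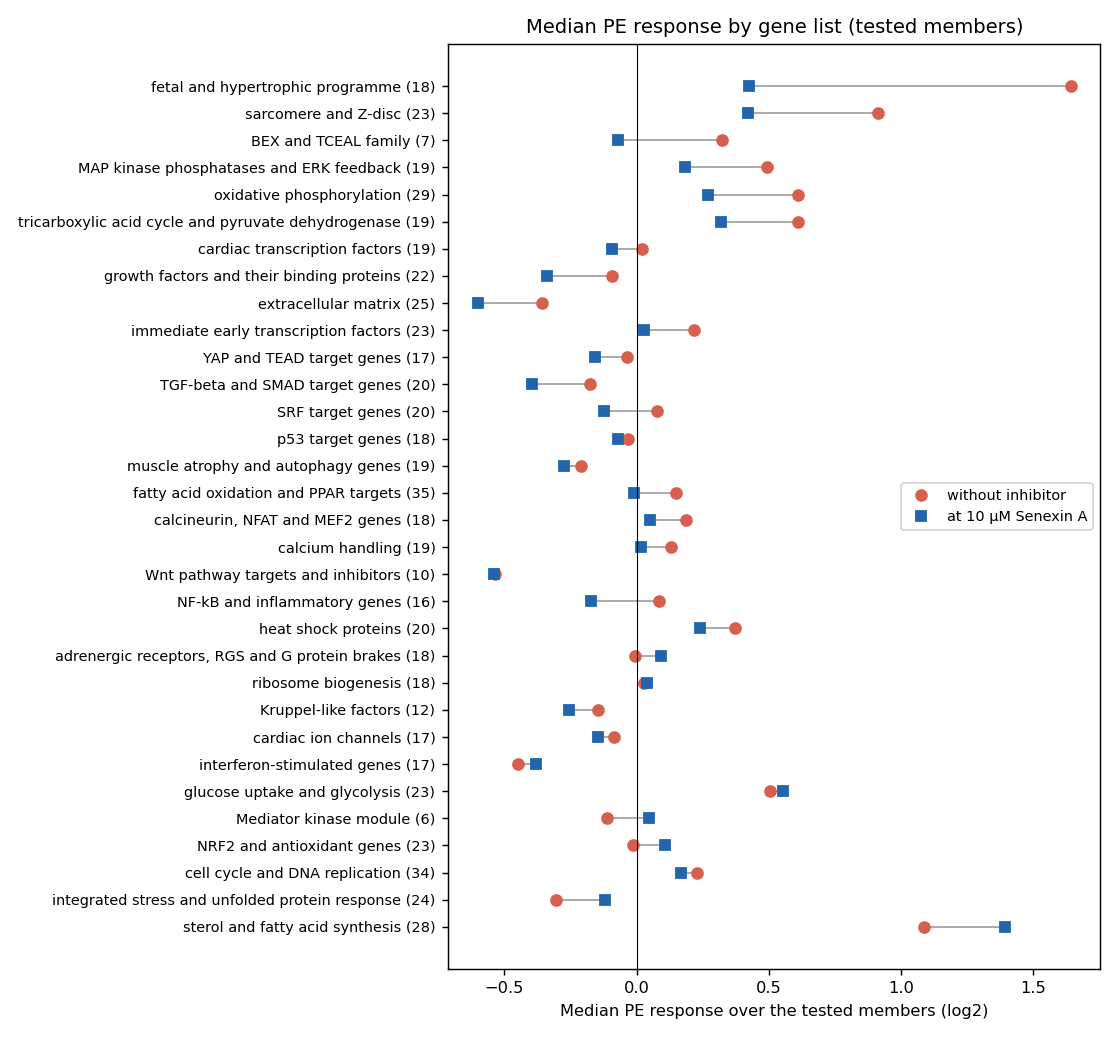
Median PE response over the tested members of each gene list (number in brackets), on the log2(FPKM + 1) scale. Red circles are without inhibitor and blue squares at 10 µM Senexin A. Lists are ordered by their median interaction. The fetal and hypertrophic programme goes from 1.64 to 0.42 and the sarcomere list from 0.91 to 0.42, while sterol and fatty acid synthesis goes from 1.09 to 1.39; a difference of 2 medians is not the median interaction.

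Among regulators, immediate early transcription factors had 19 of 23 negative estimates, a median of -0.20 and 0 called by limma (8 at an unadjusted p under 0.05), with Jun, Nr4a3 and Ier5 called with the block (-0.70, -0.79 and -0.56). MAP kinase phosphatases and ERK feedback genes had 16 of 19 negative estimates, a median of -0.35 and 0 called by limma (6 at an unadjusted p under 0.05). Of these Dusp8, a phosphatase of JNK and p38, was called with the block (-1.01, adjusted p = 0.019, and 0.155 without it), at 32.7, 35.2 and 44.7 FPKM with PE and 18.5, 19.9 and 23.4 with both drugs. PE raised 11 of the 19 without and 6 with the inhibitor (17.9% and 18.9% of all tested genes). The block called 1.47% of all tested genes as negative, and 1018 of 10478 had an unadjusted p under 0.05 by limma. The inhibitor's targets and their partners had no called interaction. Cdk8 was at 13.5, 12.6 and 14.5 FPKM in Vehicle and 15.8, 16.4 and 14.6 with both drugs, with an interaction of 0.27 ± 0.16 (adjusted p = 0.644). Of 6 tested genes of the Mediator kinase module 0 were called by limma, with or without the block, and 0 had an unadjusted p under 0.05; their interactions ran from -0.08 to 0.27.

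The interaction was also compared between doses. The 50 µM interaction uses the same Vehicle and PE libraries, so that its values are given side by side only: it was called in 734 genes (7.01%), or 1690 with the block (16.1%), and among them were 22 of the 25 negative genes, each negative, and 5 of the 7 positive ones. The PE response at 50 µM minus that at 10 µM shares no library with Vehicle or PE alone, but subtracts the same 10 µM libraries that gave the 10 µM interaction, and was called in 313 genes (2.99%), or 1147 with the block (10.9%). Since the 32 genes were called from those libraries, a low or high response at 10 µM by itself moves this difference the other way, and it is no independent test for them. Of the 32 genes it was called in Acta1 and Pdlim5, and with the block also in Fhl1, Pitpnb, Glrx and Myl3 (adjusted p = 0.028, 0.022, 0.045 and 0.049). The PE response of Acta1 was 4.09 without inhibitor, 2.25 at 10 µM and 0.02 at 50 µM. That of Pdlim5 was 0.91, 0.24 and 0.63, the smallest at 10 µM, so that its difference lies in the direction in which the choice of genes moves it, and that of Acta1 in the opposite one. For the other 30 genes the differences between doses, from -0.69 in Fhl1 to 0.85 in Neil2, did not pass without the block, which does not show that the doses acted alike.

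Calls differed in how much they rested on single libraries. Acta1, Adamts19, Fbxl22, Fhl1, Rai2, Itga5, Slc12a7, Cnksr3, Pdlim5, Nrbp2 and Ptgds were among the 12 called in all 18 omissions, with adjusted p of at most 0.032. Azin2 was lost in 2 of them, Myl3 and Pitpnb in 3, and Rab3ip, Slc25a26, Ppip5k1 and Zyx in 6 to 9, with adjusted p up to 0.093. Rcan1 and Sh3bgr were lost in 10, Ankrd1 in 11, Csrp3 in 12 and S1pr1 in 13, with adjusted p up to 0.146. Actc1 and Tmem243 were lost in 14 and Slmap in 15, and the 5 positive genes other than Nrbp2 and Ptgds in 12 to 15, with adjusted p up to 0.148. No estimate of the 32 changed sign in any omission, which their choice from these same libraries favours.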

How the data were processed

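Bulk polyadenylated RNA was measured in 18 libraries, 3 in each of 6 groups, of which 12 form the interaction. The authors deposited 1 FPKM value per gene and library. Per the submitters' processing notes, reads were handled with Bowtie2 and Cufflinks on rn5. Their versions, annotation, strand setting and filters: not given in the sources used here. In all, the deposited table had 17303 rows and a floor of 0.01 FPKM, at which 27.4% of values stood. Since 1881 rows (1006 of those tested) share their locus with another, their values are uncertain. FPKM keeps no absolute depth, so no counting interval is given.

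Values were tested as log2(FPKM + 1), which understates the change of low genes, with limma 3.58.1 (R 4.3.3, moderated statistics with a variance trend) on the 10478 rows that reached 1 FPKM in 3 or more libraries. All 6 group means were fitted, which left 12 residual degrees of freedom. Benjamini-Hochberg adjustment ran over all tested genes of a comparison. Levels are per library or geometric means, on the FPKM scale, and folds are from the model. The fit without the block was run on simulated data with independent libraries. Those data lack the pairing by replicate number described below, so they are no check of the calls made here. Figures were drawn with Python 3.11.15 and matplotlib 3.10.9.

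The samples, lists and rules were chosen with earlier results of these data known. Genes named are the 12 largest called interactions in each direction averaging 5 FPKM or more in any group (7 were positive), called or leading members of the 32 lists, leading genes of each response class, and a panel. The other called genes were named after their values were seen. Of the 32 called genes, 1 is counted but not reported here by name. Alternatives were pseudocounts of 0.1 and 0.5, no filter or 5 FPKM, quantile normalization, median-ratio scaling, compared groups only, no trend, array weights, the replicate block, a minimum log2 size of 1, and omitting each library in turn.

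The replicate numbers were found to pair the libraries. After group means were subtracted, the 45 pairs of libraries with the same number had correlations of 0.213 to 0.587 (median 0.435), the 90 other pairs had -0.462 to 0.0949, and the best match had its own number in 90 of 90 tests. The pairing was found in the values, since the labels give only the numbers. Libraries of 1 group correlated across genes by 0.9863 to 0.9923.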

Additional observations from a re-analysis of the deposited data

Results flagged for a closer look

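In 2 of the 32 genes the PE response differed between 10 and 50 µM Senexin A by the test of that difference. The test uses the same 10 µM libraries from which the 32 genes were called, so it is not independent of their choice, which moves genes of negative interaction towards a higher response at 50 µM. With the replicate block 6 of the 32 passed, with Fhl1, Pitpnb, Glrx and Myl3 in addition. The PE response of Acta1 was lower at 50 µM by -2.23 ± 0.25 on the log2 scale (limma, adjusted p = 0.00048). The PE response of Pdlim5 was higher at 50 µM by 0.40 ± 0.10 (limma, adjusted p = 0.042).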

How the results depend on the processing

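The number of called interactions depended on the fit. No estimate of a gene named by the rule reversed, but many of these genes were named for large estimates. The block, the filters, the fit with no trend and the compared groups alone leave each estimate as it was, so they could not reverse one. The 32 called genes (7 positive, 25 negative) became 17 (4 and 13) with no filter, 86 (27 and 59) with array weights and 230 (76 and 154) with the replicate block; a pseudocount of 0.1 left 4 positive, and a minimum log2 size of 1 left 19. Of the 32, 11 were called in all 18 omissions and in all 10 other fits listed with the processing. With the block, Senexin A changed 2761 genes without PE and 2924 with PE. The 313 genes whose PE response differed between doses became 202 with no filter, 1147 with the block, 496 with array weights and 104 in the compared groups alone, and the 734 of the 50 µM interaction became 1690 with the block and 1265 with array weights.

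The median response of the genes chosen at 50 µM was 0.38 without inhibitor and 0.45 at 10 µM with a pseudocount of 0.1, 0.29 and 0.36 with the block, 0.32 and 0.40 with array weights, and 0.51 and 0.63 in the compared groups alone, where the difference was 0.12. The block in the compared groups alone, chosen after seeing the data, gave 471 interactions (154 and 317), 3016 and 3051 inhibitor effects, 825 dose differences, 1278 interactions at 50 µM and a median of 0.38 without inhibitor.

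Leaving out 1 library gave 13 to 43 called interactions (2 to 11 positive, 11 to 32 negative), 2162 to 3331 PE responses without inhibitor and 2410 to 3512 at 10 µM, 948 to 1777 inhibitor effects without PE and 1042 to 1879 with it, 121 to 460 dose differences and 392 to 921 interactions at 50 µM. The medians ran from 0.34 to 0.42 and from 0.41 to 0.50, with a difference of 0.054 to 0.11. Leaving out 1 replicate number with the block, also chosen after seeing the data, gave 150 interactions without number 1, 9 without 2 and 7 without 3 (39, 1 and 2 positive, 111, 8 and 5 negative). The other counts were then 2736 to 3398, 2965 to 3886, 1249 to 2072, 1335 to 2222, 85 to 1034 and 423 to 1222 in the same order, and the medians were 0.36, 0.374 and 0.41 without inhibitor and 0.45, 0.42 and 0.51 at 10 µM for numbers 1, 2 and 3, with a difference of 0.050 to 0.11. Why the counts moved was not tested beyond the fewer libraries or genes in these fits. For the named genes, 3602 values in those fits and omissions kept direction and call, 244 lost a call, 52 gained one and 31 uncalled values moved. In the fits chosen after seeing the data these numbers were 429, 57, 68 and 10. Absolute depth was unknown, and values near 1 FPKM are compressed by the pseudocount.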

Other observations

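Some genes were called only with the replicate block; those named here were chosen after their values were seen. Lamc1, the laminin gamma1 chain of basement membranes, was at 152, 139 and 156 FPKM in Vehicle, 247, 193 and 199 with PE, 287, 225 and 208 with Senexin A, and 762, 498 and 495 with both. The combination lay above every other library, with an interaction of 0.76 ± 0.23 (limma, adjusted p = 0.036 with the block and 0.207 without it). Col18a1, the collagen chain that gives rise to endostatin, was at 37.3, 28.5 and 34.5 FPKM in Vehicle, 59.8, 31.0 and 36.3 with PE, 51.2, 26.4 and 32.6 with Senexin A, and 129, 60.2 and 73.4 with both (0.92 ± 0.42, limma, adjusted p = 0.0065 and 0.494). Here each library of the combination lay above all others. Tm7sf2, a sterol reductase outside the sterol list, was at 22.3, 20.9 and 22.7 FPKM with PE and 45.1, 37.1 and 45.8 with both (0.91 ± 0.27, limma, adjusted p = 0.031 and 0.211). Tgm3, a transglutaminase, was at most 0.459 FPKM in Vehicle and PE, at 1.06, 1.67 and 0.732 with Senexin A, and at 10.1, 18.1 and 4.80 with both (2.12 ± 0.46, limma, adjusted p = 0.0036 and 0.078).

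In the calcium handling list 0 of 19 members were called by limma (6 at an unadjusted p under 0.05), and the block called Casq2, the calcium-storing calsequestrin of the sarcoplasmic reticulum, at -0.74, and Jph2, a junctophilin that holds that organelle to the cell membrane, at -0.61. In the cardiac transcription factor list 0 of 19 were called (6 at an unadjusted p under 0.05), and the block called Hopx, Myocd, the SRF coactivator myocardin, and Esrrg, a nuclear receptor of energy metabolism, at -0.74, -0.72 and -0.50. Of the heat shock proteins 0 of 20 were called (5 at an unadjusted p under 0.05), and the block called the small heat shock proteins Hspb6 and Hspb8 and the cochaperone Bag3, at -0.85, -0.58 and -0.30. Of the fatty acid oxidation and PPAR target genes the block called Ppargc1b, a coactivator, and Cd36, the fatty acid transporter, at -0.82 and -0.74. In the small BEX and TCEAL family 0 of 7 were called (4 at an unadjusted p under 0.05), and the block called Tceal7, Bex1 and Wbp5 at -1.68, -1.04 and -0.40. Among interferon-stimulated genes 0 of 17 were called (1 at an unadjusted p under 0.05), and the block called Ifit1, at -1.13. Beside these lists, the block called 1.47% of all tested genes as negative, and 1018 of 10478 had an unadjusted p under 0.05 by limma.

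Scn3b, a sodium channel beta subunit, was at 5.02, 2.30 and 2.02 FPKM in Vehicle, 23.7, 28.5 and 29.6 with PE, 2.75, 1.65 and 1.28 with Senexin A, and 6.68, 6.59 and 7.01 with both (-1.39 ± 0.34, limma, adjusted p = 0.030 with the block and 0.109 without it). It stood highest with PE alone.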
